A study of Homo sapiens with 40 samples.

Results

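The regions described here are the enhancers that were listed in non-senescent EndoC-βH3 cells and had no counterpart in the list made in senescent cells. They were chosen by position: a region of the non-senescent enhancer list was taken when it shared no base with any region of the senescent list. Of 14886 regions in the non-senescent list, 4371 met this rule, which is 29.4% (95% Wilson interval 28.6 to 30.1). The other 10515 overlapped the senescent list and are named shared enhancers here. Of 13076 regions in the senescent list, 2680 shared no base with the non-senescent list, which is 20.5%, and they served as the mirror group. EndoC-βH3, an established line of human beta cells, carries a Cre recombinase that tamoxifen activates. Both states have the wild-type label and were the same line. Senescent cells had been kept with 4-hydroxytamoxifen for 3 weeks, and the non-senescent cells are labelled as the control. The line was made to divide by transgenes for telomerase and for the large T antigen of SV40, an inhibitor of p53 and Rb, and Cre removes both. The control cells thus kept them, and in these comparisons senescence and loss of the transgenes cannot be told apart, nor can either be told from exposure to the drug. The libraries were chromatin immunoprecipitations for H3K27ac and CTCF, with 3 per state each, and for H3K4me1 and Rb, with 2 per state each, and each library had its input, which gives 40 in all.

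Enhancers are stretches of DNA, often far from a gene's start, that bind transcription factors and raise transcription of a gene on the same chromosome. Active enhancers carry acetylation of lysine 27 of histone H3 (H3K27ac) together with monomethylation of lysine 4 (H3K4me1). In beta cells, enhancers are bound by factors such as NEUROD1, PDX1, NKX6-1, FOXA2 and MAFA. NEUROD1 belongs to the basic helix-loop-helix family, whose members bind E-boxes, short palindrome-like letters that open with CA and close with TG. CTCF is a zinc finger protein that binds a long core motif and, with cohesin, anchors chromatin loops.

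The lists were made from the H3K27ac and H3K4me1 signal of each state and hold positions alone. Each list is pooled over libraries, so the replicate error of membership cannot be estimated here. Absence from the senescent list does not show that the marks were absent from senescent cells. The H3K27ac level quoted for an enhancer is the authors' mean normalized read count over all 6 libraries of both states, for the whole H3K27ac peak that holds it, and so it says nothing of a change between states. No value of a single library was used. Depth per library is therefore unknown, and the mean counts summed to 19239499 over 51489 H3K27ac peaks and to 6136424 over 51457 CTCF peaks. Intervals on shares are 95% Wilson intervals, those on differences of shares are 95% Newcombe intervals and those on medians are 95% order-statistic intervals. They cover counting error over regions only, and neighbouring regions are not independent. No test across regions was run. The beta-cell label was checked at start sites. An H3K27ac peak covered a start site of 11 of 12 beta-cell markers (insulin INS at 230.4 mean counts per kb of peak), MAFA being the one without, of 4 of 7 markers of other islet cells, of 1 of 5 acinar markers (CPA1), of 1 of 5 duct markers (KRT19), of 1 of 5 immune markers (CD68) and of 0 of 5 mesenchymal markers.

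Of the 17 motifs searched, the one with the largest difference in percentage points from both other groups was CAGATGG. This is an E-box that NEUROD1 and related factors bind. Binding of these factors was not measured, and the letters do not show it. The name NEUROD1 E-box stands for these letters only. The stretches below show this E-box in capitals in 9 enhancers listed only in non-senescent cells that lay nearest to one of the named genes of the beta cell maturity, insulin secretion or beta-cell identity lists. Showing these was decided after the values had been seen. Most of the enhancers of this kind nearest to those genes did not hold the E-box in the central 500 bp. None of the 4 nearest to TCF7L2, the 5 nearest to EFNA5 or the 3 nearest to RFX6 held it. The share over all 4371 was 20.4%. Each stretch is from hg38 and is printed 5′ to 3′ on the strand given, so that the E-box reads the same way in all of them.
E-box nearest to FOXA2, chr20:22453126-22453172 (minus strand): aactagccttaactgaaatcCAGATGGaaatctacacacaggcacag
E-box nearest to GLIS3, chr9:3976967-3977013 (plus strand): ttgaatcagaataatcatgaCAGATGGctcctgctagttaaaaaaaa
E-box nearest to GLIS3, chr9:4095682-4095728 (minus strand): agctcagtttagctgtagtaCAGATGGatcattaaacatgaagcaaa
E-box nearest to NKX6-1, chr4:84091776-84091822 (minus strand): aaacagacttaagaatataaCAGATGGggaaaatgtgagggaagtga
E-box nearest to ELP4, chr11:31715078-31715124 (plus strand): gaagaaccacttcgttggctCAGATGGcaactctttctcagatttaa
E-box nearest to PCSK1, chr5:96220259-96220305 (minus strand): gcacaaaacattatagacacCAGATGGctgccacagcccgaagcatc
E-box nearest to RAPGEF4, chr2:172759446-172759492 (plus strand): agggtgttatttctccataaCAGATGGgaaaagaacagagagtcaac
E-box nearest to RAPGEF4, chr2:172938371-172938417 (minus strand): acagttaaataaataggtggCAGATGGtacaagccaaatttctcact
E-box nearest to IRS2, chr13:109743812-109743858 (minus strand): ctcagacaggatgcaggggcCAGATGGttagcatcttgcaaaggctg

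FOXA2 and NKX6-1 encode beta-cell transcription factors, and so does GLIS3, whose own introns held both of its enhancers shown. ELP4 encodes a subunit of the elongator complex, and its introns lie beside PAX6. PCSK1 encodes the protease that starts the conversion of proinsulin, RAPGEF4 encodes a cAMP sensor of insulin exocytosis and IRS2 encodes an adaptor of the insulin receptor. Of these 9 enhancers, the one in RAPGEF4 at chr2:172936425-172940566 had the highest H3K27ac level, a mean count of 576.7 for its peak, and held 2 E-boxes in its central window. The one nearest to PCSK1 had the lowest, at 40.9. Distances of the 9 to the nearest protein-coding start site ran from 10.3 kb (RAPGEF4) to 405.1 kb (NKX6-1).

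E-boxes also stood close together in some of these enhancers. The next 3 stretches come from the 3 members with the most CAGATGG matches in the central 500 bp, ties being ordered by H3K27ac per kb, and this rule was set after the values had been seen. They are printed on the plus strand, where CCATCTG is the same E-box read from the other strand, and capitals mark every match.
Enhancer nearest to GLCE, chr15:69156835-69156935 (plus strand): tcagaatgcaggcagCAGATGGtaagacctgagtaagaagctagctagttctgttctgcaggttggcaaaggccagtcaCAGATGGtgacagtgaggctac
Enhancer nearest to THBS1, chr15:39255874-39255954 (plus strand): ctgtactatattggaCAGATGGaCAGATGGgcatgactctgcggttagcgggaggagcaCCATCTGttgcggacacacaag
Enhancer nearest to BRINP1, chr9:119099311-119099363 (plus strand): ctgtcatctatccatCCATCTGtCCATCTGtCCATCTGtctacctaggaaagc

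The enhancer nearest to GLCE (chr15:69155959-69157972) held 4 matches in its central window, of which the stretch shows 2. The enhancers nearest to THBS1 and to BRINP1 held 3 each, and near BRINP1 they followed one another in a short repeat.

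CAGATGG was found, on either strand, in the central 500 bp of 891 of the 4371 enhancers listed only in non-senescent cells, a share of 20.4% (19.2 to 21.6). The share was 17.1% (16.4 to 17.9) in shared enhancers and 12.9% (11.7 to 14.3) in enhancers listed only in senescent cells. It was thus 3.26 percentage points higher than in shared enhancers (1.88 to 4.67), on 19 of 23 chromosomes, and 7.44 points higher than in senescent-only enhancers (5.67 to 9.16), on 21 of 23 chromosomes. Windows of the same length, 10 kb from these enhancers and outside H3K27ac peaks, held the letters in 8.99% of cases, and the centres of all H3K27ac peaks held them in 13.4%. At least 2 matches stood in 2.75% of the windows (2.30 to 3.27), beside 1.45% in shared and 1.04% in senescent-only enhancers.

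The E-box share went with the overlap between the lists. In the non-senescent list it was 20.4% in regions that met no senescent region, 20.8% in those covered by up to 50%, 18.3% in those covered by 50 to 90% and 16.3% (15.4 to 17.2) in those covered by over 90%. In the senescent list the order was the opposite, from 12.9% in regions with no overlap to 19.7% (18.7 to 20.8) in those covered by over 90% by the non-senescent list. The matches were densest in the middle of the regions. Within 200 bp of the centre there were 0.474 matches per kb in enhancers listed only in non-senescent cells, 0.389 in shared and 0.292 in senescent-only enhancers. At 800 to 1000 bp from the centre these were 0.188, 0.213 and 0.151. The bins were counted in all regions, whatever their width. Median widths were 1573 bp, 2696 bp and 1570 bp in the same order. The outer bin thus often lay outside the listed region, more so in the groups other than shared enhancers. No difference between the groups is read from that bin.

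**Figure D1:**
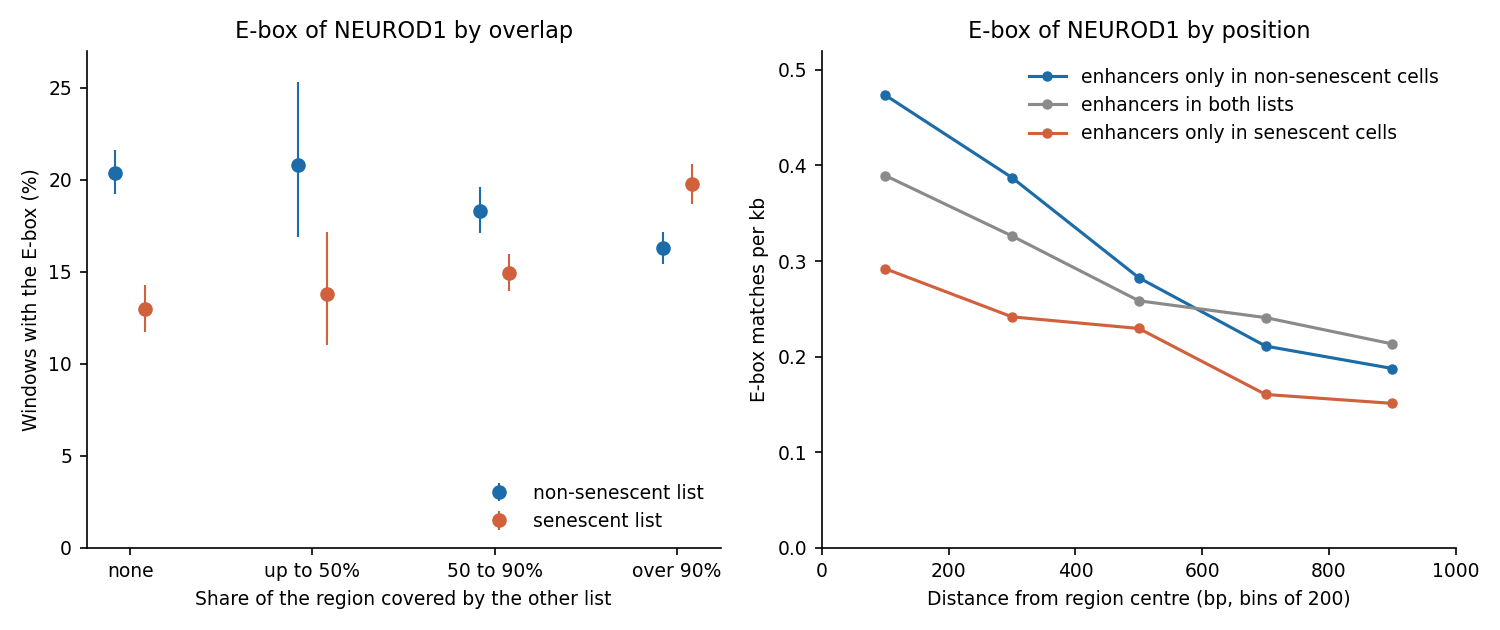
The left panel plots the share of central 500 bp windows with CAGATGG (%, bars are 95% Wilson intervals) against how much of the region the other list covers, and the right panel plots matches per kb in bins of 200 bp from the region centre. Shares run from 20.4% to 16.3% in the non-senescent list and from 12.9% to 19.7% in the senescent list, and all 3 groups are highest within 200 bp of the centre.

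Only the E-box with these inner letters stood apart from both other groups. The 10 kinds of E-box were counted by their inner letters, a breakdown chosen after the values had been seen. CAGATG without the last G was found in 46.3% of enhancers listed only in non-senescent cells (44.8 to 47.8), in 41.2% of shared and in 35.2% of senescent-only enhancers. The difference was 5.12 points (3.37 to 6.87) from shared enhancers, on 20 of 23 chromosomes, and 11.1 points (8.71 to 13.4) from senescent-only enhancers, on 22 of 23. Of the other 9 kinds, none had an interval apart from 0 against shared enhancers. Against senescent-only enhancers, CAAATG was 2.93 points higher (0.643 to 5.19) and CAGCTG 2.51 points higher (0.290 to 4.71). CACGTG, the E-box of MYC and of clock factors, was found in 6.41%, 7.10% and 6.72% of the groups in the same order.

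The E-box difference was present among enhancers of like width, in introns and outside genes. Among regions of 1 to 2 kb the shares were 21.2% in enhancers listed only in non-senescent cells (n = 2229), 17.7% in shared and 13.8% in senescent-only enhancers. In introns they were 20.9%, 17.1% and 12.5%, and in intergenic regions 20.4%, 17.1% and 13.6%. Where GC content of the window was under 40% they were 16.9%, 12.97% and 10.8%, at 40 to 50% they were 21.6%, 17.9% and 13.5%, and at 50% or more they were 22.3%, 19.5% and 14.9%. In the last of these the difference from shared enhancers was 2.77 points (−0.0143 to 5.68), an interval that held 0. Within 10 kb of a protein-coding start site the difference from shared enhancers was −0.494 points (−3.36 to 2.55), while that from senescent-only enhancers was 4.83 points (1.19 to 8.33). The CTCF core motif can contain CAGATGG, and in 23 of the 891 windows a match shared bases with it. Counting only matches apart from that motif gave 19.97%, 16.9% and 12.8%. In regions that overlapped no CTCF peak the shares were 20.8%, 17.5% and 12.7%.

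Among the 4371, enhancers with the E-box had a higher GC content in the window than those without it, with medians of 44.6% (44.2 to 45.2) and 43.4% (43.2 to 43.8). The nearest gene had H3K27ac at a start site for 75.4% (72.5 to 78.1) beside 78.9% (77.5 to 80.2), and the homeodomain letters CTAATTA were found in 5.05% (3.80 to 6.69) beside 6.87% (6.07 to 7.76). Their median width was 1629 bp (1562 to 1679) beside 1563.5 bp (1538 to 1588), and a CTCF peak was centred inside 13.8% (11.7 to 16.2) beside 15.5% (14.4 to 16.8). The forkhead motif TGTTTAC was found in 12.9% of the former (10.9 to 15.3) and 13.5% of the latter (12.4 to 14.7). Median H3K27ac was 64.7 mean counts per kb of peak (63.1 to 66.0) beside 67.1 (66.2 to 68.1).

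In all, 17 motifs were searched on both strands in the central 500 bp. Against shared enhancers 7 of the 17 intervals of the difference lay above 0 and 2 below it, and against senescent-only enhancers 4 lay above 0 and 1 below it. With 17 motifs and intervals of 95%, single intervals close to 0 carry little weight. The forkhead motif TGTTTAC, bound by FOXA and FOXO factors, was found in 13.4% of enhancers listed only in non-senescent cells (12.4 to 14.4), in 11.7% of shared and in 11.2% of senescent-only enhancers, and the windows 10 kb away held it in 7.95%. That difference depended on the window: in the central 200 bp it was 0.148 points from shared and 0.256 points from senescent-only enhancers. The letters TGCTGAC, part of the site of MAF factors such as MAFA, had the opposite order, with 8.95% (8.13 to 9.83) beside 9.67% and 11.9% (10.7 to 13.1), a difference of −2.92 points from senescent-only enhancers (−4.43 to −1.45) that had this sign on 17 of 23 chromosomes. All H3K27ac peak centres held the forkhead letters in 9.71% and the MAF letters in 8.23% of cases.

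The AP-1 letters TGANTCA, the site of FOS and JUN dimers, were found in like shares of the 3 groups: 17.7% (16.6 to 18.9) in enhancers listed only in non-senescent cells, 17.3% in shared and 18.5% in senescent-only enhancers, with 14.7% in windows 10 kb away and 14.9% in all H3K27ac peak centres. The homeodomain letters CTAATTA, of PDX1 and NKX6-1 among others, were found in 6.50%, 5.97% and 6.38%. CAAAGTCCA, the site of HNF4A, was less frequent in enhancers listed only in non-senescent cells than in shared ones (1.65% and 2.48%, a difference of −0.835 points, −1.30 to −0.328), and so was GTTGCCATG, the site of RFX factors (0.915% and 1.38%). CATTCCA, the site of TEAD factors, was found in 8.33%, 7.20% and 7.13%, but also in 9.67% of the windows 10 kb away. The GC box GGGGCGGGG was found in 2.88%, 2.31% and 1.83%, while all H3K27ac peak centres, promoters included, held it in 6.57%. GATA letters AGATAAG were 1.07 points (0.128 to 2.07), E2F letters TTTCCCGC 0.297 points and the CTCF core motif 0.672 points more frequent than in shared enhancers. The letters of HNF1 (GTTAATNAT), ETS (CCGGAAGT), RUNX (TGTGGTTT), SOX (AACAATGG) and IRF (AAACNGAAA) had intervals that held 0 against both groups.

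**Figure D2:**
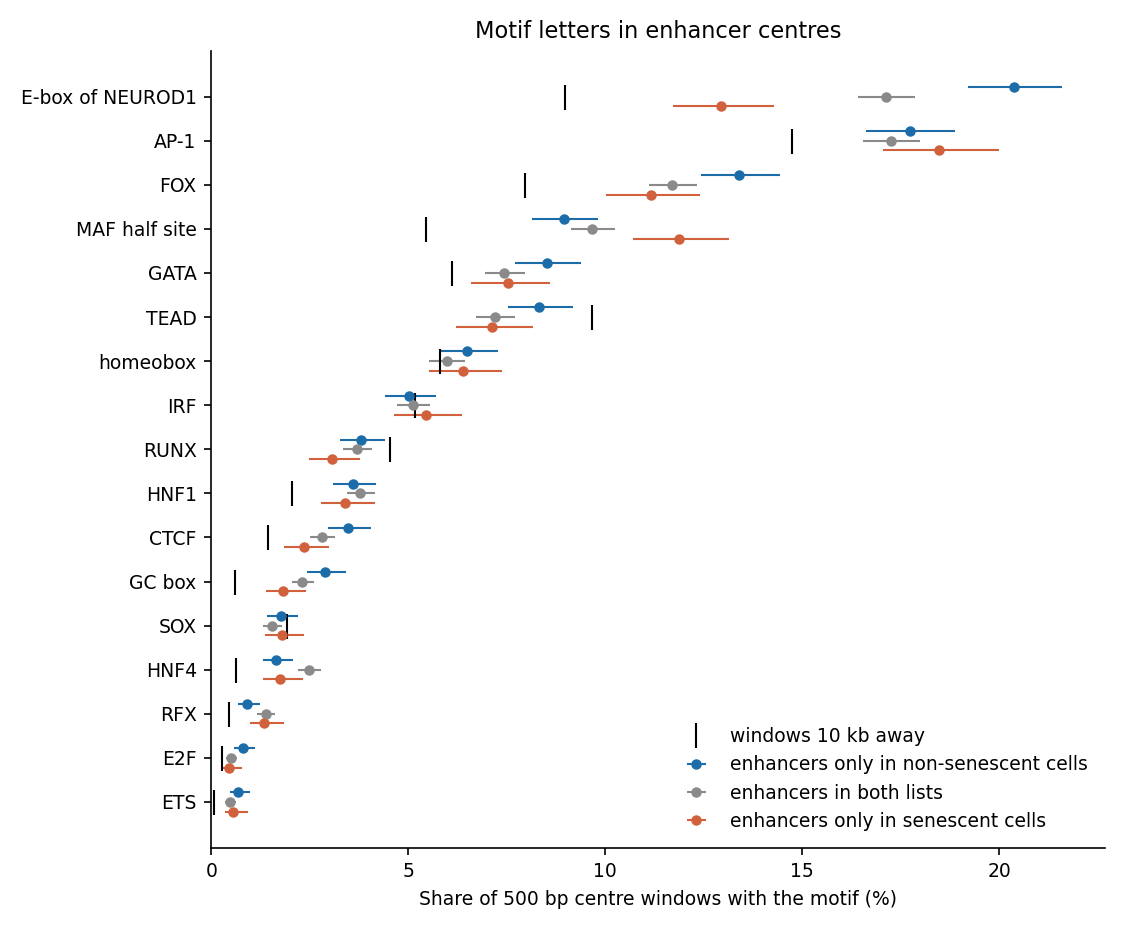
Share of central 500 bp windows (%) that hold each of 17 motifs in enhancers listed only in non-senescent cells, shared enhancers and senescent-only enhancers, with 95% Wilson intervals; the black ticks are windows 10 kb away. The E-box of NEUROD1 separates the groups most, at 20.4%, 17.1% and 12.9%, and the MAF letters run the other way.

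Enhancers listed only in non-senescent cells were narrower and less marked than shared enhancers, which is a description, since the H3K27ac signal made the lists. Their median width was 1573 bp (quartiles 1107 and 2120), beside 2696 bp for shared and 1570 bp for senescent-only enhancers, and together they covered 7748 kb. All 4371 lay wholly inside an H3K27ac peak, 4332 peaks in all. The median H3K27ac level was a mean count of 131.9 per peak, or 66.6 per kb of peak, beside 421.7 and 117 for shared enhancers and 136.3 and 66.9 for senescent-only ones. All H3K27ac peaks had medians of 118.7 and 66.6. The median levels were thus near those of the mirror group and of peaks at large, and below those of shared enhancers. The spread was narrower than that of all H3K27ac peaks. By mean count per peak, 0.480% of the 4371 lay below the lower quartile of all peaks, and 8.83% at or above the upper quartile.

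Near the limit of the rule, the smallest gap between an enhancer listed only in non-senescent cells and a senescent region was 83 bp, 18 had a gap of at most 500 bp, and the median gap was 39979 bp. On the other side, the smallest overlap of a shared enhancer was 36 bp, and 118 shared enhancers overlapped by at most 500 bp. A senescent region lay in the same H3K27ac peak for 41 of the 4371. The H3K27ac peak reached within 2 kb of a protein-coding start site for 397 of them (9.08%), beside 7.48% for shared and 7.54% for senescent-only enhancers. Enhancers were defined outside promoters, yet 153 of the 4371 (3.50%) and 464 shared enhancers (4.41%) were centred under 2 kb from a protein-coding start site of the annotation used here. The part of nearby promoters in the membership was not tested.

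The members with the highest H3K27ac counts, among those whose peak met no senescent region, lay in wide peaks, of 19578 to 28549 bp, so their counts belong mostly to sequence outside the listed enhancer. The highest was an intronic region of ZNF516, a zinc finger gene (chr18:76476553-76477691, mean count 15434.3). A pair of regions stood beside INSM1, a transcription factor of endocrine differentiation (chr20:20359199-20360553 and chr20:20361142-20365141, both in a peak of 12335.6). A region in an intron of MAPRE1, a microtubule plus-end protein, held 2 NEUROD1 E-boxes in its central window (chr20:32835403-32843219, 12327). A region over an exon of TUBB1, a beta-tubulin, stood at 10503.7 (chr20:59025090-59025734).

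By the median, these enhancers lay farther from protein-coding start sites than the other groups. The median distance from the centre to the nearest protein-coding start site was 44113 bp (41466 to 47409), beside 36141 bp (34886 to 37319) for shared and 33872 bp (30377 to 36191) for senescent-only enhancers. It was longer than for shared enhancers on 15 of 23 chromosomes and longer than for senescent-only ones on 18. At short range the difference from shared enhancers was absent. A start site lay within 10 kb for 20.2%, beside 19.7% of shared and 22.8% of senescent-only enhancers. Of the 4371, 30.7% (29.4 to 32.1) lay 100 kb or more from a start site, beside 26.2% and 27.01%, and 45.0% (43.5 to 46.4) were intergenic, beside 39.3% and 38.5%. Over the start sites of all genes, non-coding ones included, the median was 11764 bp (11180 to 12232), beside 10744 and 10374.5 bp. GC content of the central window had a median of 43.8% (43.4 to 44), beside 45.0% in shared enhancers (44.8 to 45.2) and 43.2% in senescent-only ones (42.8 to 43.6). The nearest gene had H3K27ac at a start site for 78.2% (76.9 to 79.4), beside 84.2% and 80.9%, and the share was below that of shared enhancers on all 23 chromosomes compared.

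Members followed one another in the list slightly more often than they followed shared enhancers. After an enhancer listed only in non-senescent cells, the next region of the non-senescent list was of the same kind in 33.9% of cases, beside 27.5% after a shared enhancer. They formed 3053 runs with no other listed region between them, 268 of which held 3 or more, and those runs took in 21.4% of the 4371. The longest held 8 each. The one at ADGRL2 spanned 308 kb, one on chromosome 2 spanned 1628.5 kb past BARD1, FN1 (fibronectin), MREG and XRCC5 (chr2:214575387-216203932), and one on chromosome 7 spanned 843.8 kb past EEPD1, AOAH and ELMO1 (chr7:36128642-36972484). Among chromosomes 1 to 22 and X, the ones behind every count of 23 chromosomes here, the share of the non-senescent list that was absent from the senescent list ran from 19.1% on chromosome 22 (57 of its regions) to 35.0% on X (120, interval 30.1 to 40.2).

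CTCF was measured in libraries that took no part in the lists. A CTCF peak was centred inside 663 of the 4371 enhancers listed only in non-senescent cells, a share of 15.2% (14.1 to 16.3), beside 24.97% (24.2 to 25.8) of shared and 15.9% (14.5 to 17.3) of senescent-only enhancers. The share differed from that of shared enhancers by −9.81 points (−11.1 to −8.44) and was lower on all 23 chromosomes compared. It differed from that of senescent-only enhancers by −0.690 points (−2.46 to 1.04). Part of this went with width: standardised over width deciles of all enhancers, the shares were 20.2%, 23.6% and 21.7%, which left a difference of −3.42 points from shared enhancers. No interval was computed for that difference. In regions of 1.5 to 2 kb the shares were 15.3% (13.3 to 17.6), 19.6% (17.8 to 21.6) and 15.3% (12.7 to 18.2). In every other width class the interval overlapped that of shared enhancers, as at 2 to 3 kb, with 17.0% (14.7 to 19.6) beside 19.8% (18.5 to 21.3). With CTCF peaks of mean count 50 or more the difference from shared enhancers was −3.69 points.

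**Figure D3:**
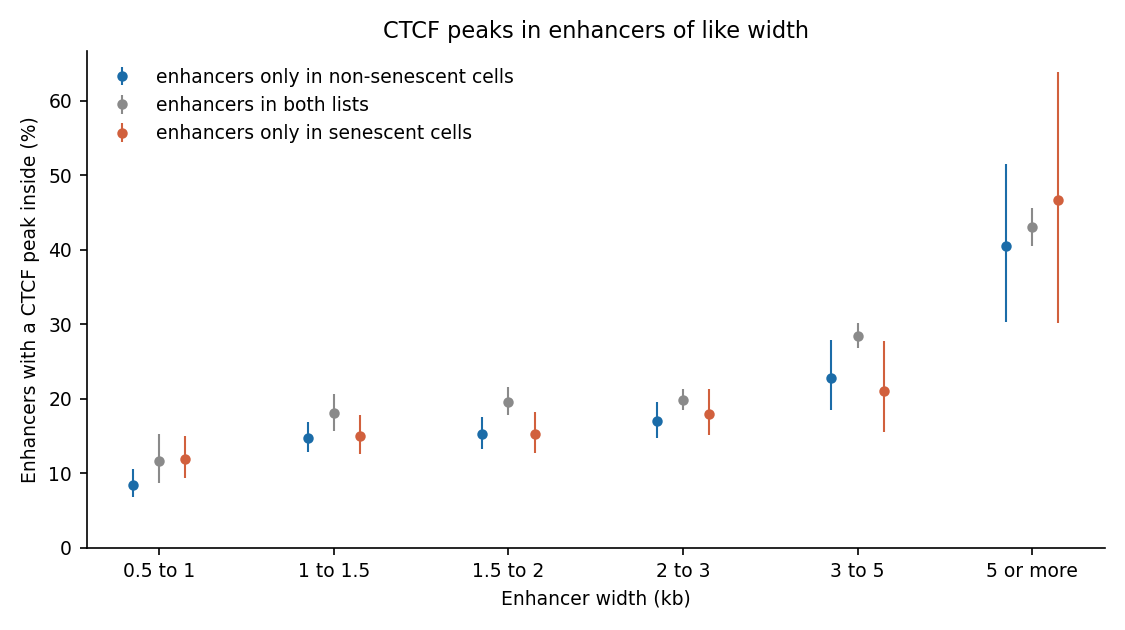
Share of enhancers with a CTCF peak centred inside (%, bars are 95% Wilson intervals) by enhancer width in kb for the 3 groups. The share rises with width in every group, from 8.48% at 0.5 to 1 kb to 40.5% at 5 kb or more in enhancers listed only in non-senescent cells, which lie below shared enhancers in each of the 6 width classes. Their intervals overlap those of shared enhancers in all classes but 1.5 to 2 kb.

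The 689 CTCF peaks centred in these enhancers had a median mean count of 44.7 over the 6 CTCF libraries (37.1 to 53.8), beside 36.0 (34.1 to 38.4) in shared and 44.2 (35.5 to 53.6) in senescent-only enhancers, and all CTCF peaks had 58.6. Allowing 1 mismatch, 30.8% of them held the letters of the CTCF core motif (27.4 to 34.3). The shares were 25.3% (23.8 to 26.9) in shared and 25.1% (21.3 to 29.4) in senescent-only enhancers, and 41.5% in all CTCF peaks. The paper states that its CTCF peaks were filtered for the CTCF motif, found by a different search. A peak without these letters may therefore still hold the motif. The strongest peaks centred in these enhancers are shown with the core motif in capitals, on the strand on which it was found. The match nearest to the peak centre is printed, an exact one where there was any.
CTCF site nearest to DBN1, chr5:177456506-177456566 (minus strand): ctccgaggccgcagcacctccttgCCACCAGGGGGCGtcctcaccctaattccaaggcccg
CTCF site nearest to TUBA1C, chr12:49235312-49235372 (minus strand): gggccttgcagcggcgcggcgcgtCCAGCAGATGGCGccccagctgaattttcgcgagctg
CTCF site nearest to IER5, chr1:181190025-181190085 (plus strand): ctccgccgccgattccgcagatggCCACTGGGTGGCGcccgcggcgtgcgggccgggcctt
CTCF site nearest to DAND5, chr19:12965495-12965555 (plus strand): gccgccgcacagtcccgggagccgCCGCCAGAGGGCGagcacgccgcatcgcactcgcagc
CTCF site nearest to ZBTB7B, chr1:155017636-155017696 (minus strand): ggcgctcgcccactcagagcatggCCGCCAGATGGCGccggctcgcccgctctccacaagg

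The CTCF peak nearest to DBN1, which encodes the actin-binding protein drebrin, lay over an exon of PRR7 and had a mean count of 1175.8. Its match and that nearest to TUBA1C, an alpha-tubulin gene (927.2), were exact, and the sites nearest to IER5 (819.8), DAND5 (811) and ZBTB7B (810.4) each had 1 mismatch. In the sites nearest to TUBA1C and ZBTB7B the core motif itself holds the letters CAGATGG. The strongest CTCF peak of all in these enhancers, 43215 bp from the start site of UBE2F (chr2:237922728-237924858), had a mean count of 1373.7. It held no match to the letters searched here, which does not show that it lacks a CTCF motif. Regions with more Rb in senescent cells overlapped 7 of the 4371 enhancers, beside 49 of the 10515 shared and 5 of the 2680 senescent-only ones. These groups covered 7748, 34192 and 4651 kb, and the counts were not adjusted for that, so no difference is read from them.

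The nearest protein-coding genes were many: 2861 of 19689 genes (14.5%) were nearest to at least 1 enhancer listed only in non-senescent cells, 1992 of them to just 1, and 949 to no other listed region. Nearness is a label by position and does not show which gene an enhancer acts on. A few genes gathered many, and 74 genes with 5 or more held 10.0% of the 4371. ADGRL2, which encodes an adhesion receptor of the latrophilin family, had the most, with 14, beside 6 shared and 0 senescent-only enhancers, and their mean H3K27ac counts ran from 47.4 to 308.5. Of these, 8 followed one another with no other listed region between them over 308 kb (chr1:81953545-82261540). TENM4, a teneurin of cell-cell adhesion, had 10, and 3 of them held the NEUROD1 E-box. LRMDA and the splicing regulator RBFOX1 had 9 each, and RBFOX1 had no H3K27ac peak at a start site.

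Among the other genes of the 20 with the most, DSCAM, an adhesion molecule of neurons, had 8, all in its introns. KCNMB2, an auxiliary subunit of the calcium-activated BK channel, also had 8, and CACNA2D1, an auxiliary subunit of voltage-gated calcium channels, had 7. CADM1, an adhesion molecule, and NRG3, a neuregulin, had 7 each, but CADM1 also had 8 senescent-only enhancers. BRINP1 had 7, of which 5 held the NEUROD1 E-box, the most among the 20 genes. GADD45G, a gene of the growth arrest and DNA damage family, had 7, of which 3 held it. None of those nearest to ADGRL2, RBFOX1, PRKD1, SGCD or ZPLD1 held it, and the share over all 4371 was 20.4%. ZNF608 had 7 beside 33 shared and 7 senescent-only enhancers, so its count came with a large number of enhancers of every kind. CMIP had 6 with a median peak count of 7484.6, the highest among the 20 genes, and a range from 65.5 to 9557.3. Those counts are for whole H3K27ac peaks and not for the listed enhancers alone.

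**Figure D4:**
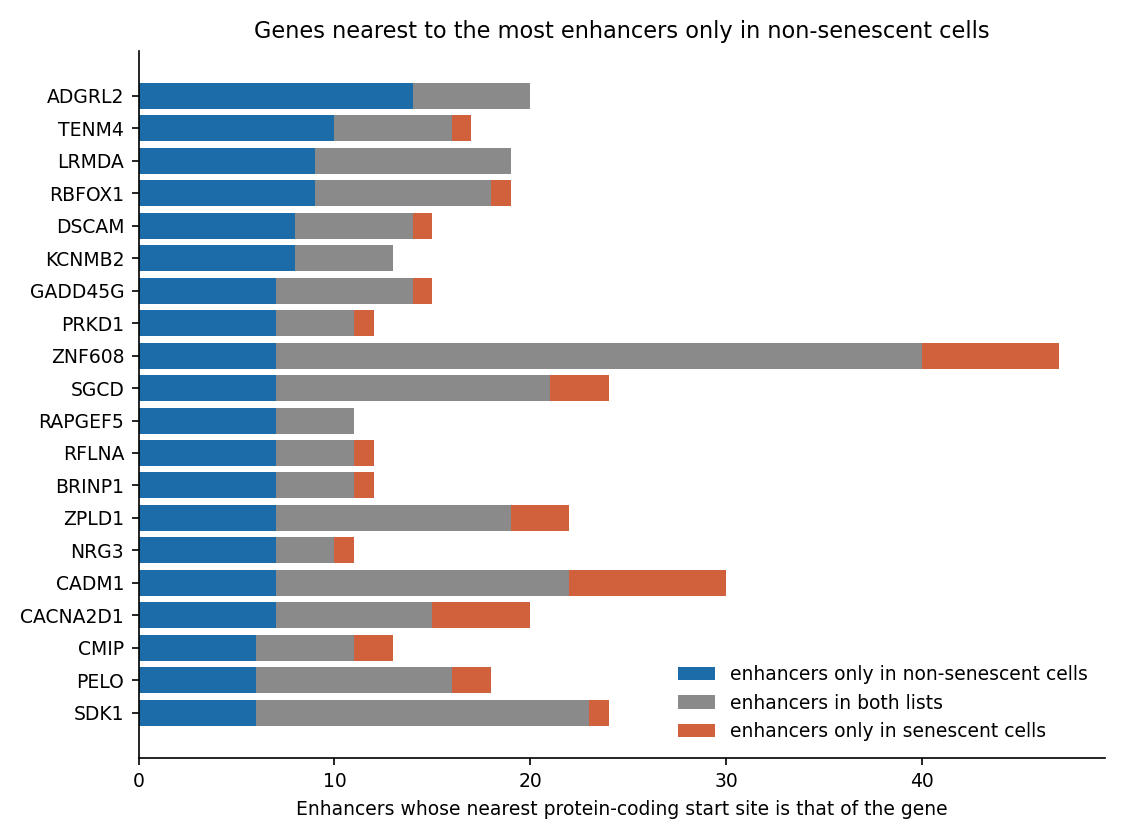
Number of enhancers whose nearest protein-coding start site is that of the gene, for the 20 genes nearest to the most enhancers listed only in non-senescent cells, split into the 3 groups. ADGRL2 leads with 14 and has no senescent-only enhancer, while ZNF608 has 33 shared enhancers beside its 7.

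Gene lists were compared by the share of the non-senescent list near their genes that was absent from the senescent list, which was 29.4% over the whole list. The lists overlap in genes. For genes of feedback on ERK signalling, which carries growth factor signals, 19 of 44 nearby regions were listed only in non-senescent cells, a share of 43.2% (29.7 to 57.8). MYC, a transcription factor of growth, gave the most, 5 beside 5 shared enhancers, all 419.8 kb or more away, and without it the share was 41.2% (14 of 34, 26.4 to 57.8), an interval that held 29.4%. Other examples are SPRED2, an inhibitor of RAS activation, with 3 beside 1 shared enhancer, and DUSP5, a phosphatase of ERK, with 2 beside 2. For Wnt and Notch genes the share was 5 of 55, or 9.09% (3.95 to 19.6), with 1 each at NOTCH1, ZNRF3, FZD1 and WNT5A among them. Among the 17 lists with 10 or more nearby regions, the intervals of these lists did not hold 29.4%, and the lower bound for ERK feedback was close to it.

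For lists tied to proliferation the share was above that of the whole list, with intervals that held it. It was 41.7% for cell cycle genes (15 of 36, 27.1 to 57.8) and 37.9% for E2F targets (39 of 103, 29.1 to 47.5). The E2F targets with the most were MYC, with 5 beside 5 shared enhancers, and RFC3, with 5 beside 9. MELK, a mitotic kinase, had 4 and no shared enhancer, CDCA7, a cell division gene, had 3 and no shared one, and USP1, a deubiquitinase of DNA repair, had 2 and no shared one, each with 1 senescent-only enhancer. The share of these genes with any such enhancer was near that of all genes. It was 12 of 92 for cell cycle genes (13.0%) and 25 of 195 for E2F targets (12.8%), beside 14.5% of all genes. With regions within 100 kb of a start site the share of E2F targets was again near that of all genes, at 29.2% beside 28.4%. For collagens, laminins and integrins the share was 39.5% (15 of 38, 25.6 to 55.3), with COL4A2 at 3 beside 1 shared enhancer and COL4A1 at 2 beside 6.

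For lists of beta-cell function the share was below that of the whole list, with intervals that held it as well. It was 23.8% for beta cell maturity genes (53 of 223, 18.7 to 29.8), 25% for insulin secretion genes (83 of 332, 20.6 to 29.9), 24.1% for beta-cell identity factors (27 of 112) and 24.8% for beta-cell ion channels (28 of 113). Without PCSK1 the interval for beta cell maturity genes lay below 29.4% (47 of 212, 22.2%, 17.1 to 28.2). PCSK1 was left out because it was nearest to the most members of that list. With 6 beside 5 shared enhancers its own share was above that of the list, so leaving it out lowers the share. No conclusion is drawn from that interval. At least 1 was nearest to 31 of 72 beta cell maturity genes (43.1%) and 15 of 28 identity factors (53.6%), beside 14.5% of all genes. With regions within 100 kb of a start site these shares were 56.9% and 53.6%, beside 28.4% of all genes. The same lists were also high for shared enhancers (66.7% and 71.4%, beside 25.4% of all genes) and for senescent-only ones (25% and 42.9%, beside 10.5%). PCSK1 had 6, beside 5 shared and 1 senescent-only enhancer. FOXA2, NKX6-1 and RFX6 had 3 each, beside 12, 6 and 6 shared ones. Neither INS nor NEUROD1, whose start site lay in a peak of 390.7 mean counts per kb, was nearest to any of the 4371. For interferon-stimulated genes the share was 26.4% (78 of 296, 21.7 to 31.6), for the senescence-associated secretory phenotype 26.8% (11 of 41), and for p53 pathway genes 27.6% (51 of 185), where FBXW7, a ubiquitin ligase subunit, had 5. Of 17 genes of class I antigen presentation 0 were nearest to one, beside 14.5% of all genes, and 1 was nearest to a shared enhancer.

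Neuronal adhesion and guidance genes, some of which beta cells share with neurons, had the largest number among the lists. Of 43 such genes 31 were nearest to an enhancer listed only in non-senescent cells, with 99 of 304 regions, or 32.6% (27.5 to 38.0). That is 72.1% of the genes, beside 14.5% of all genes, but 34 of the 43 were also nearest to a shared and 26 to a senescent-only enhancer. The excess was smaller with regions within 100 kb of a start site, at 53.5% of these genes beside 28.4% of all genes. NTM, an adhesion molecule of neurons, had 6, all in its introns, and TENM3 had 5 beside 16 shared enhancers. Among receptor tyrosine kinases, at 31.4% (27 of 86), EPHA4 had 5 beside 1 shared and ALK had 4 beside 2 shared enhancers, and IGF1R, the receptor of insulin-like growth factors, had 4 beside 9. Among endoderm and progenitor factors, at 31.8% (27 of 85), the homeodomain genes MEIS1 and MEIS2 had 4 each beside 3 shared enhancers. For genes of TGF-beta and BMP signalling the share was 27.8% (15 of 54), with LTBP1, a TGF-beta binding protein of the matrix, at 3, and for TEAD, YAP and their targets it was 41.2% (7 of 17), with TEAD1 at 3 beside 8 shared enhancers. AP-1 factor genes had 2 of 8 nearby regions, 1 each at MAFG and ATF3.

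**Figure D5:**
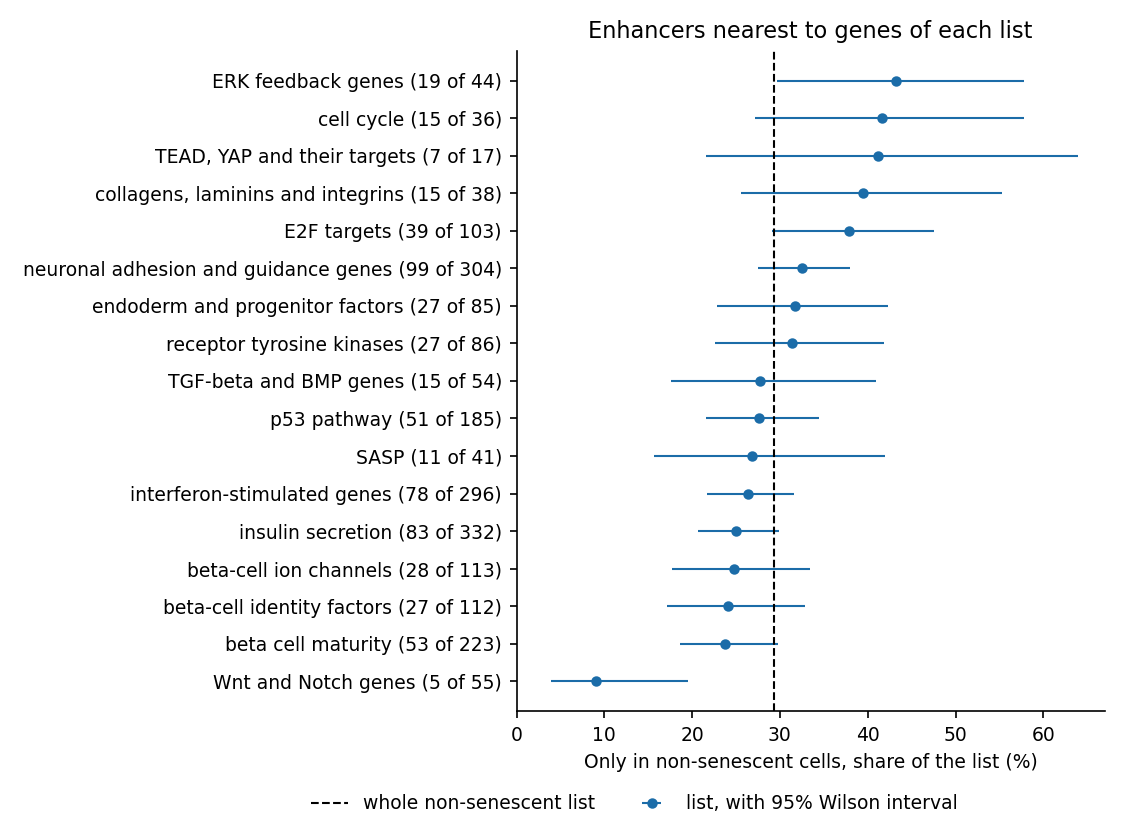
Share (%) of the non-senescent-list enhancers nearest to genes of each list that are absent from the senescent list, with 95% Wilson intervals and the counts in brackets; the dashed line is the whole list at 29.4%, and 2 lists with fewer than 10 regions are left out. ERK feedback genes (43.2%) lie above the line and Wnt and Notch genes (9.09%) below it, and the intervals of the other 15 lists cross it.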

How the data were processed

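The authors aligned reads to hg38 with Bowtie2, found H3K27ac and H3K4me1 peaks with HOMER and defined enhancers as their overlap outside promoters. How replicates were merged is not given in the sources used here. The deposited H3K27ac and CTCF tables give each peak's mean normalized read count over 6 libraries, a signal the authors made with DESeq2. Their 5 further columns hold the authors' comparison of the states and were not used. The 3 deposited region lists hold positions, which are neither signal nor score. Positions were intersected at 1 bp in Python 3.11.15 with numpy and pandas, and sequence came from hg38. Start sites were those of protein-coding transcripts of GENCODE 44. Functions were tested on simulated data. Of 1483 list entries, 10 matched no gene and 46 matched by an older symbol. Named genes are the 20 nearest to the most members and up to 4 per list, not all of which are named. Regions and CTCF peaks are the 6 with the highest mean count, 1 of which is not reported here. Members, lists and motifs were chosen with earlier results of these data known. Alternatives changed the overlap rule, the CTCF rule, the window, GC content and the link to genes.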

Additional observations from a re-analysis of the deposited data

How the results depend on the processing

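No library could be left out, and no paired analysis was possible because the files hold no values of single libraries that were used here. The number of enhancers listed only in non-senescent cells was 4371, and it was 4304 when senescent regions within 1 kb counted as overlap and 4724 when under 50% cover counted as none. The share with CTCF was 18.0% with 1 bp of a CTCF peak, 9.33% with peaks wholly inside, 7.48% with a mean count of 50 or more (−3.69 points from shared enhancers) and 20.2% standardised over width (−3.42 points). The median distance was 11764 bp over all genes, and GC content 43.2% over whole regions. The NEUROD1 E-box share was 8.81% in 200 bp (1.49 points above shared and 3.29 above senescent-only enhancers) and 33.1% in 1000 bp (10.9 points above senescent-only). Splits by distance were added after seeing the data: under 10 kb it was 16.8% (−0.494 points from shared, the only reversal, and 4.83 from senescent-only), and at 10 to 100 kb 22.1% (5.06 points above shared). All 11 alternatives kept the E-box share above that of senescent-only enhancers, by 3.29 to 10.9 points. The lists above the share of all genes numbered 14 by nearest gene, 15 within 100 kb and 14 over all start sites. Within 100 kb, E2F targets and AP-1 factors moved above that share and Wnt and Notch genes below it. Leaving out the gene nearest to the most members, also added after seeing the data, moved ERK feedback genes to an interval that held 29.4%, and beta cell maturity genes (22.2%) and TEAD, YAP and their targets (4 of 6) to intervals that did not. The genes left out were chosen by their number of members, so no conclusion is drawn from these moves.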
